A study of Mus musculus with 6 samples.

Results

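NRF2, the transcription factor encoded by Nfe2l2, was examined together with its inhibitor Keap1 and 8 genes known as its targets: Slc7a11, Gclc, Gclm, Txnrd1, Srxn1, Hmox1, Nqo1 and Osgin1. The 10 genes were picked by symbol from the 49315 genes of a raw count table, and all 10 were among the 18234 genes that passed the filter on low counts and were tested. The samples were bEND.3 cells, an immortalized mouse brain endothelial line, and RNA-seq was used to ask which transcripts change when the long non-coding RNA Gm39822 is knocked down. In the GapmeR group (n = 4) the cells were transfected with a custom antisense LNA GapmeR against Gm39822 at 100 nM, and in the Negative Control group (n = 2) with a negative control LNA GapmeR at 100 nM, in both cases with Lipofectamine 2000. All cells were grown in DMEM/F12 medium with fetal bovine serum, penicillin and streptomycin. A GapmeR is a short antisense oligonucleotide that leads RNase H to cut its target RNA. A single GapmeR product against Gm39822 was named, so effects of the knockdown and effects particular to that oligonucleotide cannot be told apart. Nothing in the sample descriptions says that the samples came from separate cultures, and the p-values then measure only the spread between these samples.

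NRF2 pairs with small MAF proteins and activates genes through antioxidant response elements (AREs), short DNA motifs. In unstressed cells KEAP1 holds NRF2 and delivers it to the CUL3 ubiquitin ligase, so that NRF2 is governed largely through the stability of its protein, and BACH1 competes for the same DNA elements as a repressor. The targets make glutathione, recycle thioredoxin and peroxiredoxin, break down heme and detoxify quinones, and in endothelium the pathway is known for its response to laminar flow and oxidants. RNA was measured here, and NRF2 protein and its binding to DNA were not.

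The targeted RNA was low in every GapmeR sample. Counts on Gm39822 were 2, 1, 4 and 2 across the GapmeR samples, in the order of their numbers, and 61 and 56 across the controls, a log2 fold change of -4.82 (SE 0.41, adjusted p = 8.82e-08). Total counts ran from 29261988 to 37117934 per sample. GapmeR 2 stood farther from the other GapmeR samples than they stood from each other, with a chi-square per degree of freedom of 20.5 to 27.95 against 5.87 to 11.8, and the value for the pair of controls was 7.23. GapmeR 3 and GapmeR 4 carried more counts on macrophage marker genes, with a summed level of 351 and 384 CPM (counts per 1000000 counts of a library, after TMM scaling) against 228 and 209 in GapmeR 1 and 2 and 177 and 173 in the controls. Much of that difference was in Lyz2, at 168 and 206 CPM in GapmeR 3 and 4, 79.1 and 73.5 in GapmeR 1 and 2, and 68.8 and 62.1 in controls. The part of GapmeR 3 and GapmeR 4 in the results was not tested, but the counts of NRF2 genes called were also taken without these samples. Most of the 13 endothelial markers were abundant in both groups, but 8 fell and 1, Erg, rose, with a median log2 fold change of -0.33. That is 61.5% lower and 7.69% higher, beside 20.0% and 25.4% of all genes tested. Among genes with a mean of at least 10 CPM, 30.7% were lower and 21.1% higher. Pecam1 was at 1029 ± 53.6 CPM (SD, n = 4) in GapmeR samples and 1265 ± 13.2 (n = 2) in controls, and Cldn5, a tight junction protein, was at 1561 ± 88.7 and 1463 ± 65.5. Cdh5, the endothelial cadherin, was at 1733 ± 175 and 2463 ± 112 CPM and Emcn, a sialomucin, at 104 ± 5.86 and 259.8 ± 14.9, and Vwf was low in both groups, at 6.22 ± 0.912 and 5.23 ± 0.581.

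Of the 10 genes, 7 rose after the GapmeR, 1 fell and 2 did not pass the test. Slc7a11, the cystine importer, rose 2.17-fold, Gclm, the modifier subunit of glutamate-cysteine ligase, 1.94-fold, and Hmox1, the inducible heme oxygenase, 1.70-fold. Osgin1 rose 1.51-fold, Txnrd1 1.30-fold, Srxn1 1.24-fold and Gclc 1.14-fold, Nqo1 was 1.24-fold lower, and Nfe2l2 and Keap1 themselves did not pass. The test was edgeR's quasi-likelihood test with p-values adjusted over all 18234 genes by Benjamini-Hochberg and called under 0.05. Much of the transcriptome passed it: 45.3% of the genes tested were called, 25.4% as higher and 20.0% as lower. Among the 8870 genes with a mean of at least 10 CPM, where all 10 lie, 51.9% were called, 21.1% as higher and 30.7% as lower. A call with at least a 1.5-fold rise was reached by 4 of the 10, Slc7a11, Gclm, Hmox1 and Osgin1, beside 17.8% of all genes tested and 7.63% of those with at least 10 CPM. The median log2 fold change was 0.34 over the 10 genes and 0.03 over all genes tested. Slc7a11 stood at the 84.1 percentile of the log2 fold changes of all genes, Gclm at 82.2, Hmox1 at 79.6 and Nqo1 at 23.5.

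**Figure D1:**
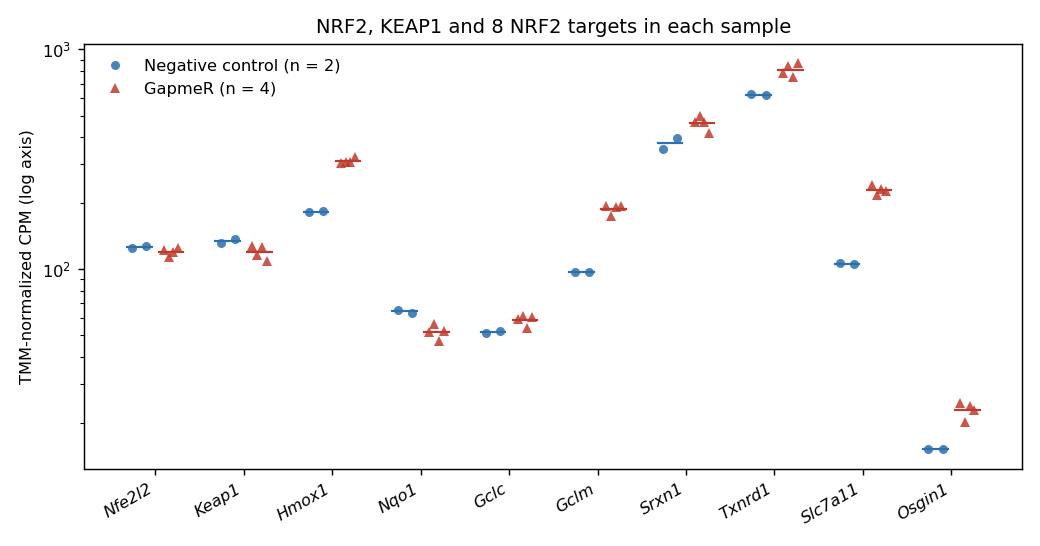
Level of NRF2 (Nfe2l2), Keap1 and 8 NRF2 targets in each sample, in TMM-normalized CPM on a log axis. Triangles are the 4 GapmeR samples, circles the 2 negative controls and bars the group means. The Slc7a11, Gclm and Hmox1 triangles stand well clear of the circles, and the Nqo1 triangles lie below them at 47.1 to 56.3 against 63.6 and 65.0.

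**Figure D2:**
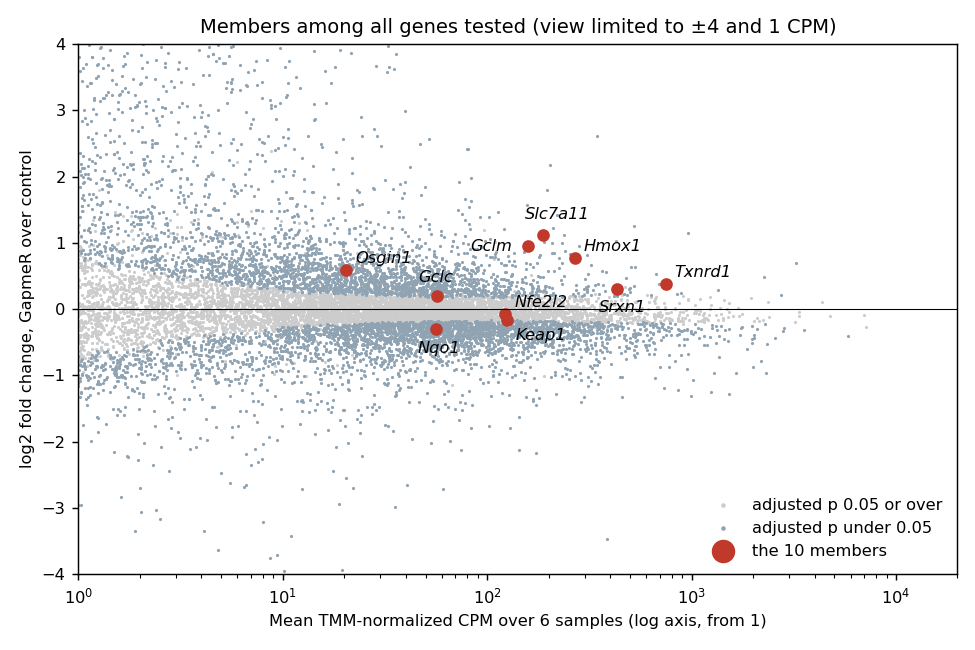
Log2 fold change of GapmeR over control against mean level (CPM, log axis) for the genes tested, with the 10 NRF2 genes as large red points. Grey points had an adjusted p of 0.05 or over and blue points one under 0.05. The view leaves out genes under 1 CPM and changes beyond 4 on the log2 scale. Slc7a11 at 1.12, Gclm at 0.95 and Hmox1 at 0.77 lie above the bulk of genes of like level, and Nfe2l2 at -0.07 lies within it.

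With the reads scaled by library size alone, without TMM factors, the median of all genes shifted by 0.15 on the log2 scale and 74.1% of all calls were higher in place of 55.9%. Under that scaling 7 of the 10 genes were called higher and none of the 10 lower, beside 33.5% and 11.7% of all genes, and 4 were called with at least a 1.5-fold rise, beside 21.7%. When GapmeR 3 and GapmeR 4 were left out, 8 of the 10 were called, 7 higher and 1 lower, beside 25.4% and 18.3% of the genes tested then. In that fit Osgin1, at a log2 fold change of 0.58, fell short of 1.5-fold, which leaves 3 of the 10 called with such a rise, beside 17.9% of genes. Osgin1 also fell short of 1.5-fold with limma-voom (0.584), with the replicate number as a block (0.577) and without GapmeR 1 (0.556). The groups did not overlap in CPM for any of the 10 genes, 7 with the GapmeR samples higher and 3 with them lower, and 59.2% of all genes tested were free of overlap as well. Without GapmeR 3 and GapmeR 4 these counts were also 7 and 3, beside 70.5% of genes. Summed over the 10 genes, the level was 2376, 2402, 2320.3 and 2401 CPM in GapmeR samples 1 to 4 and 1752 and 1794 CPM in the controls. Txnrd1 and Srxn1, the highest of the 10 in CPM, made up most of each sum, so it says little about the others.

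Promoter sequences are shown for 3 genes that rose by about the same factor and for Nqo1, which fell, so that their upstream letters can be compared. Each is the 250 bases before a RefSeq transcription start on GRCm38.p6 (mm10), the build of the counts, written 5′ to 3′ on the strand of the gene. Capitals mark matches on either strand to the ARE core (TGAC, any 3 bases, then GC), the AP-1 site TGACTCA or the amino acid response element core TGATGCAA, which is bound by ATF4.
Slc7a11, chr3:50443614-50443863, minus strand: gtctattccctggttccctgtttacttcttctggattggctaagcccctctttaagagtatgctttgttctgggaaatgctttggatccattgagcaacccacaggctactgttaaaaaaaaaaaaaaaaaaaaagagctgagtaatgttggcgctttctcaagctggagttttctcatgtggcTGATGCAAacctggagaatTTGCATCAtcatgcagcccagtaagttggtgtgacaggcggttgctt
Gclm, chr3:122245307-122245556, plus strand: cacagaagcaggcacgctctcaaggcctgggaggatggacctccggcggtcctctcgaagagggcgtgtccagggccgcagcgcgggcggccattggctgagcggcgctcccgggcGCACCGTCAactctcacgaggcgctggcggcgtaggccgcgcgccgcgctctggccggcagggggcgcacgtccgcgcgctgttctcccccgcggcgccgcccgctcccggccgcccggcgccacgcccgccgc
Prdx1, chr4:116685349-116685598, plus strand: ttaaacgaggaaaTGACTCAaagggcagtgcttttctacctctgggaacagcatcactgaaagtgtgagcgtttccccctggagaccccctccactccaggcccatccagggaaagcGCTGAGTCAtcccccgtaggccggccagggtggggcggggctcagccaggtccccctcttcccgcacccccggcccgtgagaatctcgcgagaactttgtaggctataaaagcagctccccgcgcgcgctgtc
Nqo1, chr8:107403206-107403455, minus strand: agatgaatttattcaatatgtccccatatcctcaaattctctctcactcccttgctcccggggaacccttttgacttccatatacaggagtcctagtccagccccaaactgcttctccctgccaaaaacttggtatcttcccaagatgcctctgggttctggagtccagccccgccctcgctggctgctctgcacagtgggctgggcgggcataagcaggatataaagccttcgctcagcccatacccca

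In Slc7a11 the capitals are 2 copies of the amino acid response element core, on opposite strands, with first bases 66 and 47 before the start. Gclm holds an ARE core on the reverse strand, 134 bases before the start. Prdx1 holds an ARE core on the reverse strand 133 bases before the start, which overlaps an AP-1 site, and another AP-1 site farther out. The Nqo1 stretch holds none of the 3 motifs, which says only that these letters are not in this window. Over windows of 250 bases before to 50 after a start, the RefSeq table had 10 windows for 8 of the 10 genes. The ARE core was in those of 4 of the 8 (Gclm, Nfe2l2, Srxn1 and Txnrd1) and in 14% of the 27025 genes of the table, or 12.4% of its 32851 windows. AP-1 sites were in the windows of Osgin1 and Srxn1 and in 5.2% of all windows, and the amino acid response element core was in that of Slc7a11 and in 0.895% of all windows. An ARE core and an AP-1 site can share letters, as in Prdx1, so these motifs are not independent. A match describes the sequence and does not show binding. The Slc7a11 start used here lies far inside the RefSeq extent of the gene, whose upstream end is at 50499087, and no promoter at that end is shown. The Gclm start also lies inside the extent of its gene, but close to the upstream end at 122245487.

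The transcript of NRF2 itself was at nearly the same level in both groups. Nfe2l2 (ENSMUSG00000015839, chromosome 2, 75675513 to 75704663 on GRCm38) measured 122, 114, 119.6 and 125 CPM in GapmeR samples 1 to 4 and 126 and 127 CPM in the controls. The GapmeR values lay just under the controls, and the gap between the nearest samples was smaller than the spread within the GapmeR group. The log2 fold change was -0.07 (SE 0.07, 95% confidence interval -0.22 to 0.07, adjusted p = 0.417), and it turned to 0.08 with library size alone. Keap1 (ENSMUSG00000003308, chromosome 9, 21229730 to 21239332), the adaptor that delivers NRF2 for degradation, measured 128, 117, 127 and 109 CPM against 131 and 138. All 4 GapmeR values lay below the controls, but the log2 fold change of -0.17 (SE 0.08, interval -0.33 to 0.00051) did not pass at an adjusted p of 0.0968. The Nfe2l2 to Keap1 count ratio within each sample was 1.01 ± 0.0955 in GapmeR samples and 0.940 ± 0.0241 in controls, and the groups overlapped.

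Of 18 genes listed as NRF2 partners, relatives and turnover factors, 6 rose, 8 fell and 4 did not pass, with a median log2 fold change of 0.02. For this and each list below, the shares to read the counts against are the 25.4% of all genes tested that rose and the 20.0% that fell. Among genes with a mean of at least 10 CPM, where many of the listed genes lie, these shares were 21.1% and 30.7%. Bach1, the repressor that competes with NRF2 for AREs, measured 38.8, 41.3, 39.6 and 39.6 CPM in GapmeR samples and 51.1 and 57.2 CPM in controls. All GapmeR samples were lower, and Bach1 fell by 0.44 on the log2 scale (SE 0.07, adjusted p = 0.000137). The Nfe2l2 to Bach1 ratio was 3.03 ± 0.186 against 2.34 ± 0.166, with no overlap. Bach2, its relative, was near the detection floor, with 8 to 20 counts in each GapmeR sample and 9 and 8 in the controls. Nfe2l1, which encodes the related factor NRF1 that drives proteasome genes, fell from 508 ± 40.3 to 304 ± 13.5 CPM, a log2 fold change of -0.74 (SE 0.08, adjusted p = 7.89e-07). Sqstm1, the p62 autophagy receptor that binds KEAP1, rose from 1783 ± 29.9 to 2493 ± 159 CPM, with a log2 fold change of 0.48 (SE 0.08, adjusted p = 0.000226). Among the small MAF partners, Maff rose with a log2 fold change of 0.27 (adjusted p = 0.00949). Mafg fell by 0.22 and Mafk by 0.30 on the log2 scale (adjusted p = 0.0148 and 0.0207), although 1 GapmeR sample of Mafk, at 336 CPM, was above the lower control at 328. Mafk lost its call without GapmeR 1 (-0.28), GapmeR 4 (-0.25) or Negative Control 2 (-0.12), Mafg without GapmeR 3 (-0.19), Negative Control 1 (-0.20) or Negative Control 2 (-0.21), and Maff without Negative Control 2 (0.26). None of these 3 passed with the replicate number as a block or without GapmeR 3 and 4, and Mafg (-0.07) and Mafk (-0.15) did not pass with library size alone. Cul3, the ligase scaffold, rose with a log2 fold change of 0.29, and Gsk3b, a kinase that marks NRF2 for KEAP1-independent turnover, fell by 0.51 on the log2 scale (adjusted p = 0.00303 and 1.23e-05). With library size alone Bach1 stood at -0.30 and Cul3 at 0.44, both still called. Nfe2, the blood-cell member of the family, had 96, 144, 89 and 126 counts in GapmeR samples and 3 in each control, a ratio of 33.0 with a 95% counting interval of 15.1 to 90.5. Nfe2 and Nfe2l3, which had 2 and 1 counts in the controls, passed the filter on low counts only through the GapmeR samples. Such genes could hardly be called lower, and both are among the 6 that rose.

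Among the 10 genes, the 2 with the highest fold changes belong to the glutathione branch. Slc7a11 (ENSMUSG00000027737, chromosome 3, 50364936 to 50499087), the xCT subunit that brings in cystine, measured 242, 218, 231 and 227 CPM in GapmeR samples and 107 and 105 CPM in controls. Every GapmeR sample was more than 2 times the higher control, and the log2 fold change was 1.12 (SE 0.07, interval 0.96 to 1.28, adjusted p = 5.82e-09). Slc3a2, the heavy chain that carries xCT to the membrane, moved the other way. It measured 511, 482, 498 and 469 CPM against 951 and 1056, and fell by 1.03 on the log2 scale (SE 0.07, adjusted p = 1.5e-08). The ratio of Slc7a11 to Slc3a2 counts was 0.469 ± 0.0135 in GapmeR samples and 0.106 ± 0.00865 in controls, a 4.43-fold difference. Slc3a2 also serves other amino acid transporters, and of these Slc7a5 rose with a log2 fold change of 0.32 (adjusted p = 0.00721), a call lost without Negative Control 2 (0.29, adjusted p = 0.0976).

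Gclm and Gclc are the modifier and catalytic subunits of the enzyme that sets the pace of glutathione synthesis. Gclm (ENSMUSG00000028124, chromosome 3, 122245487 to 122267215) measured 193, 174, 191 and 195 CPM against 97.5 and 96.8. Its lowest GapmeR sample, GapmeR 2, was still far above both controls, and the log2 fold change was 0.95 (SE 0.08, interval 0.79 to 1.12, adjusted p = 4.49e-08). Gclc (ENSMUSG00000032350, chromosome 9, 77754535 to 77794489) measured 59.5, 61.6, 54.2 and 61.0 CPM against 51.2 and 52.2. GapmeR 3 came within 2 CPM of the nearer control, and the log2 fold change of 0.19 (SE 0.07, interval 0.03 to 0.35) passed narrowly at an adjusted p of 0.047. Gclc did not pass without Negative Control 1 (adjusted p = 0.173), without Negative Control 2 (0.125), without GapmeR 1 (0.0879) or GapmeR 4 (0.0896), nor with DESeq2 (0.062), limma-voom (0.056) or no filter (0.0696), and with library size alone it stood at 0.34 and passed. The Gclm to Gclc count ratio was 3.25, 2.83, 3.53 and 3.20 in GapmeR samples and 1.90 and 1.85 in controls, which is 1.70-fold higher on average.

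Of 33 genes listed for glutathione synthesis, import and use, 32 were tested, and 10 rose, 6 fell and 16 did not pass, with a median log2 fold change of 0.11. Abcc2, with 2 and 0 counts in the controls, is among those that rose and passed the filter only through the GapmeR samples. Gss, the synthetase that completes glutathione, rose from 46.0 ± 0.791 to 69.6 ± 3.03 CPM, a log2 fold change of 0.60 (SE 0.07, adjusted p = 5.96e-06). Abcc4, an exporter of conjugates and nucleotides, rose from 51.9 ± 3.37 to 143 ± 6.76 CPM, a log2 fold change of 1.47 (SE 0.08, adjusted p = 4.54e-10). Of the glutathione S-transferases that were called, most rose. Gsta4 rose from 2.33 ± 0.298 to 7.84 ± 0.831 CPM, and Gsta3 had 72 to 111 counts per GapmeR sample against 12 and 6, a ratio of 8.37 with a counting interval of 5.22 to 14.3. Gsto1 fell by 0.78 on the log2 scale, from 1156 ± 15.4 to 673 ± 57.5 CPM. Transferases belong to multigene families of close paralogs, so reads shared between copies may have been split between them. Glrx, a glutaredoxin, fell by 0.79 on the log2 scale (SE 0.08, adjusted p = 8.38e-07), and Chac1, which degrades glutathione, by 0.29 (adjusted p = 0.0114), although Chac1 did not pass with library size alone (-0.14, adjusted p = 0.169) or without Negative Control 1 (-0.25, 0.13) or Negative Control 2 (-0.29, 0.0885). For Gsr, which reduces oxidized glutathione, the log2 fold change was 0.08 (adjusted p = 0.368), or 0.23 with library size alone, where it passed (0.0131), and for Gpx4, the phospholipid peroxidase, it was -0.16 (adjusted p = 0.129).

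The NRF2 targets of the thioredoxin branch rose by less than Slc7a11 and Gclm, and their confidence intervals did not reach those of these genes. Txnrd1 (ENSMUSG00000020250, chromosome 10, 82833951 to 82897724), the cytosolic thioredoxin reductase, measured 779.7, 838, 753 and 865 CPM in GapmeR samples and 624 and 618 CPM in controls. All 4 GapmeR samples were higher, with a log2 fold change of 0.38 (SE 0.08, interval 0.21 to 0.55, adjusted p = 0.00111). A protein-coding gene, Eid3, overlaps Txnrd1 on the same strand in the GENCODE annotation, and reads in the shared part could belong to either. Slc7a11, Gclm, Osgin1 and Nfe2l2 also have same-strand overlaps there, none of them with a gene annotated as protein-coding. Srxn1 (ENSMUSG00000032802, chromosome 2, 152105524 to 152111376), the sulfiredoxin that repairs overoxidized peroxiredoxins, measured 469.6, 496, 466 and 418 CPM against 354 and 394. The controls differed from each other by more than the gap between GapmeR 4 and Negative Control 2. The log2 fold change was 0.31 (SE 0.08, interval 0.13 to 0.49, adjusted p = 0.00736), and it did not pass without Negative Control 1 (0.25, adjusted p = 0.12).

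Prdx1, the abundant cytosolic peroxiredoxin that is repaired by sulfiredoxin, was no member of the 10 genes but changed by more than either. It measured 1238, 1171, 1163 and 1121 CPM against 543 and 518, a log2 fold change of 1.15 (SE 0.08, adjusted p = 9.66e-09). It was among 16 genes listed for the thioredoxin and peroxiredoxin system, of which 3 rose, 1 fell and 12 did not pass, with a median of 0.03. The others that rose were Sesn1 and Sesn3, stress-induced sestrins, with log2 fold changes of 0.60 and 0.23 (adjusted p = 0.00375 and 0.0391). Both lost the call without Negative Control 2 (0.53 and 0.18), and Sesn3 also without GapmeR 1 (0.19) and with DESeq2 (adjusted p = 0.0549). Txn2, the mitochondrial thioredoxin, fell by 0.23 on the log2 scale (adjusted p = 0.0462) but passed in only 4 of 14 other fits, and lost the call without GapmeR 2 (-0.17), GapmeR 4 (-0.20), Negative Control 1 (-0.17) or Negative Control 2 (-0.25). Txn1, the substrate of Txnrd1, was 0.08 higher on the log2 scale (adjusted p = 0.395) and Txnip, the thioredoxin inhibitor, 0.04 higher (0.734), and neither passed, although Txn1 did with library size alone (0.23, adjusted p = 0.0196). The value for Txnrd2, the mitochondrial reductase, was 0.22 (adjusted p = 0.0794), and it passed in 5 of 14 other fits, among them without GapmeR 3 (0.30, adjusted p = 0.0173) and with the replicate block (0.31, adjusted p = 0.0248). The Txnrd1 to Txnrd2 ratio was 43.1 ± 2.30 against 38.6 ± 2.14, with no sample of one group inside the range of the other (exact permutation test, two-sided p = 0.133).

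Hmox1 (ENSMUSG00000005413, chromosome 8, 75093618 to 75100593) breaks heme into biliverdin, carbon monoxide and iron. It measured 305, 306, 308 and 326 CPM in GapmeR samples and 182 and 183 CPM in controls. The values were tight within each group and far apart between them, and the log2 fold change was 0.77 (SE 0.07, interval 0.62 to 0.92, adjusted p = 3.36e-07). No annotated gene overlaps Hmox1. For Hmox2, the constitutive heme oxygenase, it was -0.05 (adjusted p = 0.605), which turned to 0.10 with library size alone. The Hmox1 to Hmox2 ratio was 2.83 ± 0.131 in GapmeR samples and 1.61 ± 0.0350 in controls. Of 15 genes listed for heme and iron handling, 7 rose, none fell and 8 did not pass, with a median of 0.20, which is 46.7% higher beside 25.4% of all genes. Fth1, the ferritin heavy chain that stores iron, rose from 2311 ± 24.0 to 3736 ± 304 CPM, a log2 fold change of 0.69 (SE 0.09, adjusted p = 1.33e-05). Ftl1, the light chain, stood at -0.10 (adjusted p = 0.343), or 0.04 with library size alone, and both ferritins have many processed pseudogenes that can share their reads. Aco1, the iron-sensing aconitase, rose with a log2 fold change of 0.52 and Abcb6, a porphyrin transporter, with 0.68 (adjusted p = 4.71e-05 and 0.00879), the latter not without Negative Control 2 (0.61, adjusted p = 0.091). Blvrb, which reduces biliverdin, did not pass, at 0.20 (adjusted p = 0.0996), but did without GapmeR 2 (0.27, adjusted p = 0.00354) and with library size alone (0.35, adjusted p = 0.00682).

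Nqo1 was the exception among the targets. Nqo1 (ENSMUSG00000003849, chromosome 8, 107388225 to 107403205), the quinone reductase often used as a readout of NRF2, measured 51.9, 56.3, 47.1 and 52.5 CPM in GapmeR samples and 65.0 and 63.6 CPM in controls. All 4 GapmeR samples were lower, and Nqo1 fell by 0.31 on the log2 scale (SE 0.08, interval -0.47 to -0.14, adjusted p = 0.00413). It did not pass without Negative Control 1 (-0.27, adjusted p = 0.0654) or with library size alone (-0.16, adjusted p = 0.126). Osgin1 (ENSMUSG00000074063, chromosome 8, 119425882 to 119446257), an oxidative stress-induced growth inhibitor, measured 24.7, 20.3, 23.9 and 22.8 CPM against 15.2 and 15.3. It was the least abundant of the 10 genes, and it rose with a log2 fold change of 0.59 (SE 0.10, interval 0.38 to 0.80, adjusted p = 0.000132).

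Of 21 genes listed for quinone and carbonyl detoxification, 19 were tested, and 6 rose, 2 fell and 11 did not pass, with a median of 0.04. Aox1, an aldehyde oxidase, rose from 13.4 ± 1.90 to 33.5 ± 1.78 CPM, a log2 fold change of 1.32 (SE 0.10, adjusted p = 2.31e-08). Ephx1, the microsomal epoxide hydrolase, rose with a log2 fold change of 0.39 and Cbr3, a carbonyl reductase, with 0.33 (adjusted p = 0.000544 and 0.00224), the latter not without Negative Control 2 (0.28, adjusted p = 0.0551). Akr1b3, an aldose reductase, fell by 0.41 and Ugdh, which makes UDP-glucuronic acid, by 0.34 on the log2 scale (adjusted p = 0.000344 and 0.00325). Ugdh did not pass without Negative Control 2 (-0.26, adjusted p = 0.0985) or with library size alone (-0.19, adjusted p = 0.084), where Akr1b3 stood at -0.26 and passed. Of 11 genes that supply NADPH, the reductant these enzymes use, 3 rose, 1 fell and 7 did not pass, with a median of 0.03. Me1, the cytosolic malic enzyme, rose with a log2 fold change of 0.39, Nnt with 0.49 and Idh2 with 0.56 (adjusted p = 0.000891, 0.000291 and 0.00581). The Idh2 value rested on the controls, at 0.33 without Negative Control 2 (adjusted p = 0.149) and 0.87 without Negative Control 1. G6pdx, which feeds the pentose phosphate pathway, fell by 0.35 on the log2 scale (adjusted p = 0.00559), but did not pass with library size alone (-0.20, adjusted p = 0.0745) or without Negative Control 1 (-0.26, adjusted p = 0.125).

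**Figure D3:**
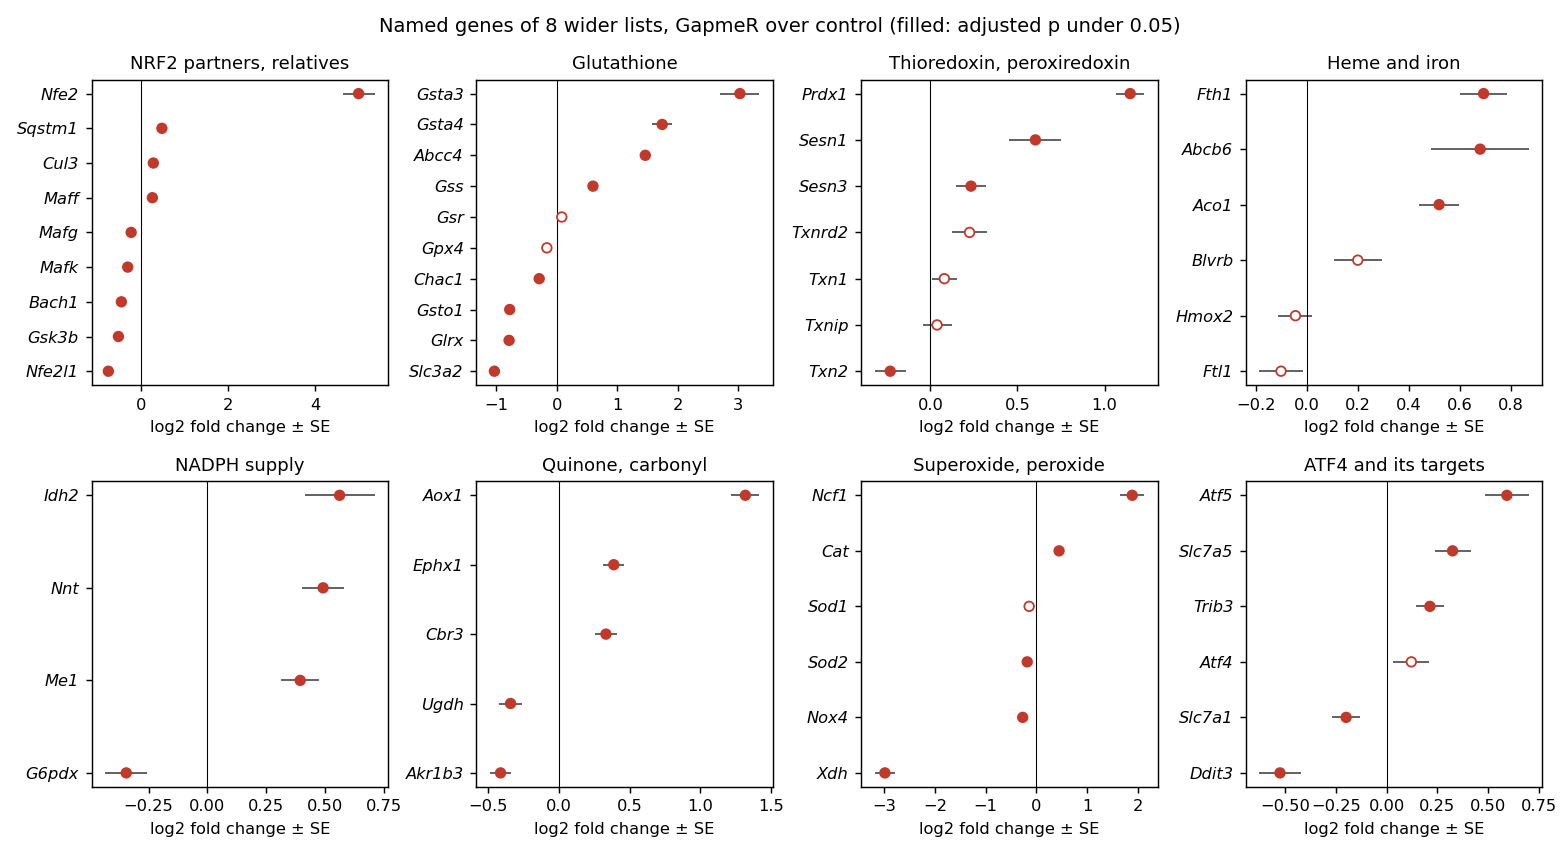
Log2 fold change of GapmeR over control with its standard error for named genes of 8 antioxidant gene lists (Bach2, near the detection floor, is not drawn), each panel with its own axis. Filled points had an adjusted p under 0.05. In most panels points lie on both sides of 0: Prdx1 is at 1.15 and Txn2 at -0.23, Gss at 0.60 and Slc3a2 at -1.03, and Xdh at -2.99. The Hmox2, Ftl1 and Sod1 points change sign with library size alone, to 0.10, 0.04 and 0.0045.

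Of 13 enzymes that make or remove superoxide and peroxide, 4 rose, 3 fell and 6 did not pass, with a median of 0.47. Duox2, with 6 and 2 counts in the controls, is among those that rose and would not have passed the filter on the controls alone. Xdh, the xanthine oxidoreductase that can release superoxide, measured 11.4, 7.45, 13.9 and 10.00 CPM against 77.4 and 91.4, which is 7.94-fold lower (log2 fold change -2.99, SE 0.20, adjusted p = 2.32e-05). Cat, the peroxisomal catalase, rose with a log2 fold change of 0.45 (adjusted p = 0.000942). Nox4, the main NADPH oxidase of endothelium, fell by 0.27 on the log2 scale (adjusted p = 0.00826), but did not pass without Negative Control 2 (-0.17, adjusted p = 0.231), with library size alone (-0.12, 0.184), with the replicate block (0.0952) or without GapmeR 3 and 4 (0.0966). Sod2, the mitochondrial superoxide dismutase, fell by 0.18 (adjusted p = 0.0473) but passed in only 1 of 14 other fits, and it stood between -0.20 and -0.15 in the fits without 1 sample that ended the call, those without GapmeR 1, 3 or 4 or either control. Sod1 stood at -0.14 (adjusted p = 0.152), or 0.0045 with library size alone. Ncf1, a subunit of the phagocyte oxidase, rose with a log2 fold change of 1.89 (adjusted p = 9.46e-06). Ncf1 was at 4.69, 4.24, 6.06 and 7.15 CPM in GapmeR samples 1 to 4 and at 1.497 and 1.47 in controls, so it was higher in the samples with more macrophage marker counts and was above both controls in the others as well. Of 12 macrophage markers, 3 rose (Cd68, Fcer1g and Mrc1), none fell and 9 did not pass. These markers did not move alike. Adgre1 was at 4.99, 3.83, 10.4 and 13.4 CPM in GapmeR samples 1 to 4 and 3.91 and 3.73 in controls. Cd68 was at 123, 113, 125 and 116 CPM against 87.2 and 89.5, without a rise particular to GapmeR 3 and 4. Cd14 was at 2.69, 2.18, 4.03 and 3.06 CPM against 3.72 and 4.57, with a log2 fold change of -0.48 that did not pass. Whether macrophages were present in the samples was not tested, nor was any part of them in the Ncf1 values. A larger number of cells of a type cannot be told apart from more RNA per cell in bulk samples.

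Slc7a11 and several amino acid genes are also targets of ATF4, the factor of the amino acid and endoplasmic reticulum stress response. Of 16 genes listed as ATF4 and its targets, 3 rose, 2 fell and 11 did not pass, with a median log2 fold change of 0.11. Atf4 itself measured 433, 379, 442 and 472 CPM against 415 and 378, so the groups overlapped, and its log2 fold change was 0.12 (SE 0.09, adjusted p = 0.28). It passed with library size alone (0.27, adjusted p = 0.0189) and without GapmeR 2 (0.18, adjusted p = 0.0294). Atf5 rose with a log2 fold change of 0.59 and Trib3, a pseudokinase induced by the same stress, with 0.21 (adjusted p = 0.000618 and 0.0212). Trib3 lost the call without Negative Control 1 (0.21, adjusted p = 0.13) or Negative Control 2 (0.26, 0.0719), with the replicate block (0.0579) and without GapmeR 3 and 4 (0.0581). Ddit3, the stress factor CHOP, fell by 0.53 and Slc7a1, a transporter of cationic amino acids, by 0.20 on the log2 scale (adjusted p = 0.000756 and 0.0295). Slc7a1 passed in 7 of 14 other fits, and lost the call with library size alone (-0.05, adjusted p = 0.553), with the filter of 10 counts (0.0815), with the replicate block (0.0774), without GapmeR 3 (-0.19, 0.0622), Negative Control 1 (-0.20, 0.156) or Negative Control 2 (-0.17, 0.24), and without GapmeR 3 and 4 (0.0795).

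Together the 8 wider lists held 143 genes, of which 140 were tested. In them 42 rose, 23 fell and 75 did not pass, with a median log2 fold change of 0.09. That is 30% higher and 16.4% lower, beside 25.4% and 20.0% of all genes. Among all genes with a mean of at least 10 CPM, 21.1% were higher and 30.7% lower, and many of the listed genes lie at that level. With library size alone 64 rose and 11 fell, where 33.5% of all genes rose and 11.7% fell. Without GapmeR 3 and GapmeR 4, 44 rose and 17 fell, beside 25.4% and 18.3% of genes. Among lists for cell identity, of 11 neuron and glia markers none rose and 7 fell, with a summed level of 36.4 to 62.4 CPM in GapmeR samples and 76.7 and 78.1 in controls. Of 10 pericyte and smooth muscle markers 7 were tested and 2 rose (Myh11 and Tagln), at a summed level of 8.68 to 13.3 CPM against 2.34 and 2.19. The part of these shifts and of the endothelial marker shifts in the NRF2 gene values was not tested.

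Within a sample, a ratio of 2 genes does not depend on how libraries are scaled. In each of the 6 ratios the GapmeR and control values were compared by a two-sided exact permutation test over the 15 ways to split the samples, which cannot give a p below 0.0667. The ratios of Gclm to Gclc, Nfe2l2 to Bach1, Slc7a11 to Slc3a2 and Hmox1 to Hmox2 were all higher in GapmeR samples, each at that smallest p (0.1 when adjusted over the 6 ratios). For Nfe2l2 to Keap1 the exact p was 0.533.

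**Figure D4:**
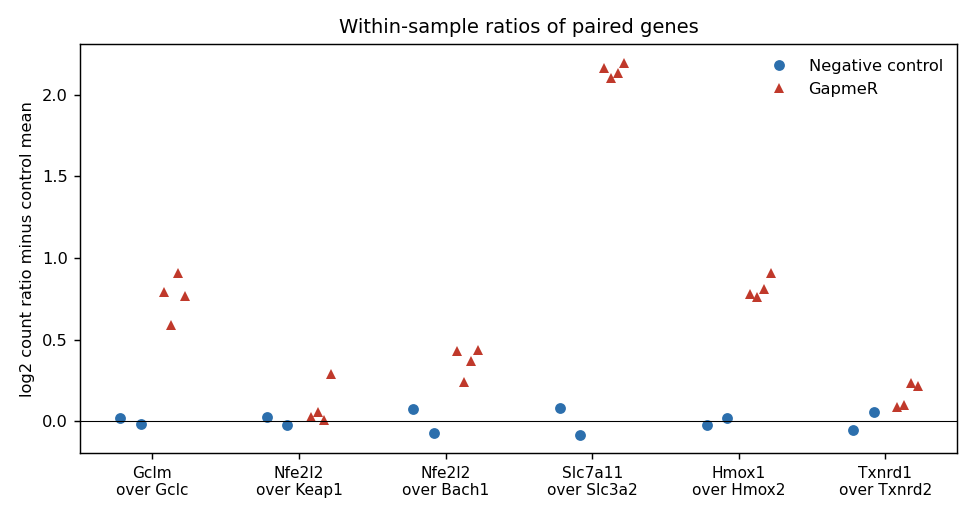
Count ratio of 2 genes within each sample, as log2 minus the mean of the controls, for 6 ratios. Triangles are the 4 GapmeR samples and circles the 2 negative controls. The Slc7a11 to Slc3a2 triangles lie near 2.15 and the Gclm to Gclc triangles near 0.76, and of the Nfe2l2 to Keap1 triangles those of GapmeR 1 and 3 lie between the circles and those of GapmeR 2 and 4 above them.

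Per kilobase of annotated exon, Hmox1 was the most abundant of the 10 genes, at 177 ± 5.60 CPM per kb in GapmeR samples and 104 ± 0.663 in controls. Txnrd1 followed at 114 ± 7.29 and 87.6 ± 0.575, and Srxn1 at 49.3 ± 3.47 and 39.8 ± 3.04. In controls Keap1 (23.6 ± 0.8289), Nqo1 (23.4 ± 0.370) and Nfe2l2 (23.2 ± 0.220) did not differ beyond their spread, and Gclm lay below them at 12.2 ± 0.0640. In GapmeR samples Gclm, at 23.7 ± 1.195 CPM per kb, reached the level of Nfe2l2 (22.0 ± 0.868) and Keap1 (21.1 ± 1.57). Slc7a11 was at 14.8 ± 0.633 against 6.83 ± 0.0553, Gclc at 9.43 ± 0.537 against 8.26 ± 0.115 and Osgin1 at 4.83 ± 0.402 against 3.21 ± 0.0164. The lengths cover the exons of all annotated isoforms, so these levels are lower limits for genes expressed from short isoforms.

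**Figure D5:**
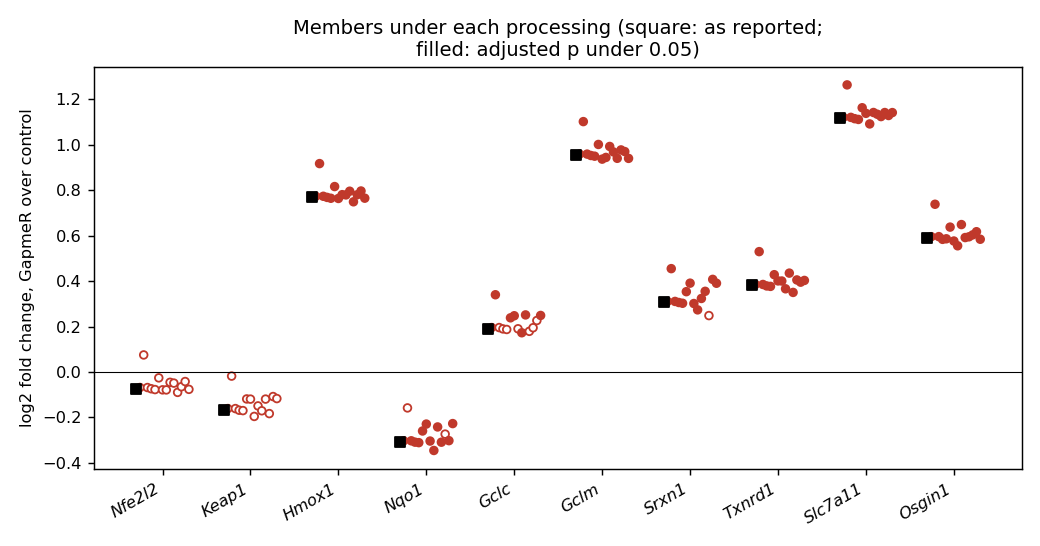
Log2 fold change of each NRF2 gene as reported (square) and in 14 other fits that changed the scaling, test, filter or samples (circles, filled where the adjusted p was under 0.05). The circles of Slc7a11 run from 1.09 to 1.26 and those of Hmox1 from 0.75 to 0.92, all filled, and those of Nfe2l2 run from -0.09 to 0.08, all open.

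Slc7a11, Gclm, Hmox1, Osgin1 and Txnrd1 were called higher in all 14 other fits. Srxn1 was called in 13 of them, Nqo1 in 12 and Gclc in 7, and Nfe2l2 and Keap1 in none. With Negative Control 1 left out 5 of the 10 genes were called, without Srxn1, Gclc and Nqo1, and with Negative Control 2 left out 7 were called, without Gclc.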

How the data were processed

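Total RNA from bEND.3 cells was sequenced after ribosomal RNA depletion as paired reads. The authors deposited raw read counts per Ensembl gene, made from reads aligned with STAR to mm10 (GRCm38) in the bcbio-nextgen pipeline. The submitters' processing notes also name Trimmomatic 0.36, STAR 2.5.2b and Subread 1.5.2, and the strand setting is not given in the sources used here, so reads of overlapping antisense genes cannot be told apart. The table has 1 further column of values that matches no sample label and was not used, and 174 rows without a symbol were tested but not named.

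A gene was tested if 2 or more of the 6 samples held 5 or more of its reads, using edgeR 4.0.16 (quasi-likelihood test, TMM scaling, R 4.3.3) and p-values were adjusted by Benjamini-Hochberg over all genes tested. CPM values were TMM-normalized, and 3 counts correspond to 0.0771 to 0.110 CPM. Intervals of fold changes are 95% intervals from the fit, and those of count ratios cover counting error only. Replicates differed by more than counting noise in every pair, so each was kept as its own sample. DESeq2 1.42.0, limma 3.58.1 (voom), other scalings, filters and thresholds, a replicate block and leaving out samples were tried as alternatives, the last also for GapmeR 3 and GapmeR 4 together, which was chosen after seeing the data, as was the search for the amino acid response element core. The scripts were tested on simulated data in which a far smaller share of genes changed than was called here. How scaling behaves when much of the transcriptome changes was not tested by simulation. Exon lengths and overlapping genes came from GENCODE vM39 (GRCm39), and coordinates and promoter windows from RefSeq on GRCm38.p6. Of the 10 genes, 8 had a promoter entry.

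The 10 genes and the gene lists were chosen with earlier results of these data known. From each wider list the text names the 3 genes with the highest and the 3 with the lowest log2 fold change among those called with a mean of at least 1 CPM, plus well-known pathway genes whatever their result, and 1 gene that the rule names is not reported here. Marker genes outside that rule, and Nfe2l3, Abcc2 and Duox2, were named after their values were seen.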

Additional observations from a re-analysis of the deposited data

Results flagged for a closer look

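In the 4 GapmeR samples, the highest or lowest value stood far from the other 3 by Dixon's ratio in 3 of 66 genes examined. Chance flags about 1 group in 20. Hmox1 was highest in GapmeR 4, at 325.7 CPM against 305 to 308 in the others. Nnt, the mitochondrial transhydrogenase, was highest in GapmeR 1, at 34.1 CPM against 29.4 to 30.1. Slc7a1 was lowest in GapmeR 2, at 141.7 CPM against 154 to 156.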

How the results depend on the processing

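With library size alone, 2135 genes of the whole table were called lower in place of 3643, no NRF2 gene was called lower, and the wider lists had 64 genes higher and 11 lower in place of 42 and 23. Requiring at least 1.5-fold left 5110 genes with an unadjusted p under 0.05 (1565 lower) and 4628 with an adjusted p (1390 lower), in place of 8268. Either threshold left 4 NRF2 genes, 4 higher and 0 lower, and 27 genes of the wider lists (21 higher, 6 lower) or 26 (20 higher, 6 lower) in place of 65. Leaving out 1 sample in turn gave 5232 to 8719 genes (3302 to 4800 higher, 1930 to 3949 lower), 5 to 8 NRF2 genes (5 to 7 higher, 0 to 1 lower) and 38 to 77 genes of the wider lists (26 to 51 higher, 12 to 26 lower). The lowest counts came without a control, and there the lone control was assumed to vary like the GapmeR samples. Without Negative Control 2, 5232 genes were called (1930 lower) and 38 of the wider lists, and without Negative Control 1, 2262 genes were called lower.

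Directions turned for Nfe2l2 (0.0752), Ftl1 (0.0447), Hmox2 (0.10) and Sod1 (0.0045) with library size alone, for Hmox2 (0.00126) with at least 10 counts in every sample, for Txnip without Negative Control 1 (-0.0025, against up to 0.121 without another sample), and for Bach2 with the replicate block (-0.0478), without GapmeR 3 (-0.0402, against up to 0.545 without another sample) and without GapmeR 3 and 4 (-0.0455). None of these was called in either direction, and the cause was not tested. Of the 140 alternative values of the 10 genes, 129 kept direction and call, 10 lost the call and 1 turned.

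GapmeR 1 and 2 share a number with a control, but nothing says that they were handled together, and deviations of same-numbered samples correlated at -0.069 and 0.135. With the number as a replicate block on those 4 samples (1 residual degree of freedom), 7798 genes, 8 NRF2 genes and 61 genes of the wider lists were called, with log2 fold changes of 1.14 for Slc7a11, 0.94 for Gclm, 0.76 for Hmox1 and -0.23 for Nqo1. The pairing changed no call of the 10 genes. Of the other named genes, Maff, Mafg, Mafk, Nox4, Slc7a1, Trib3, Sod2 and Txn2 lost their calls in this fit (adjusted p = 0.0502 to 0.327), and Txnrd2 passed (0.0248). The same 4 samples without the block gave the same losses (adjusted p = 0.0579 to 0.322), and Txnrd2 passed there as well (0.0282). These changes therefore came with leaving out GapmeR 3 and 4 and cannot be credited to the pairing.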
